A study of Homo sapiens with 9 samples.

Results

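The genes described here are those whose symbols belong to the receptors, G proteins, cyclases, phosphodiesterases, kinases, pumps and channels of cGMP-PKG, G protein and calcium signaling. They were chosen by symbol alone (the prefixes of these families, such as GNA, RGS, PDE, PRKG, PRKC, PLCB, ITPR, ATP2, CAMK, TRP and KCN, without symbols that hold a hyphen), which gave 111 of the 6499 genes listed in the deposited table. Of these, 110 are protein-coding and 1, KCNQ1OT1, is an antisense long noncoding RNA that matched by name only.

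The values come from RNA-seq of WI-38 cells, a human fetal lung fibroblast line, at population doubling 30. The control group received DMSO in place of the drug and then medium with DMSO. The doxorubicin group received 1 μM doxorubicin, a DNA-damaging anthracycline, for 12 h and then medium with DMSO for 48 h. Each group had 3 libraries, both came from this single cell line, and the third group of 3 libraries, given oridonin after doxorubicin, was not analysed here. The labels do not say that libraries of a group came from separate cultures, so the p-values measure the spread between these samples only.

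The comparison of doxorubicin with control addresses which genes move when senescence is induced in fibroblasts. All 6499 genes of the table are past the authors' thresholds (fold change over 1.2 and p under 0.05) in the authors' own columns, which were computed from the same 6 libraries, so the fits below describe sizes and spreads and are no second test. The authors' fold changes are on another scale than the deposited levels, and many listed genes lie under a 1.2-fold change on the TPM scale. Levels are in TPM, transcript abundance scaled for gene length and library total, which keeps no read depth, so library depth could not be given. Fold changes are differences of log2(TPM + 1), which understates the change of genes at low levels. A gene is said to have risen or fallen where its fold change exceeded 1.2 either way and its Benjamini-Hochberg adjusted p from limma, fitted over all genes tested, was under 0.05.

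In cGMP signaling, soluble guanylyl cyclase answers nitric oxide and the natriuretic peptide receptors answer their hormones, cGMP activates the kinases PKG-I and PKG-II, and phosphodiesterases end the signal. PKG relaxes contractile cells by lowering cytosolic calcium and by relieving the inhibition of myosin phosphatase. G protein-coupled receptors act through Gs and adenylyl cyclase on cAMP and protein kinase A, through Gq and phospholipase C on IP3, calcium and protein kinase C, and through G12 and G13 on RhoA and ROCK, and in fibroblasts these routes bear on contraction, matrix production and growth.

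Libraries of a group correlated with each other at 0.992 to 0.995 over all genes tested and with those of the other group at 0.935 to 0.958. The median of all 5721 genes tested (those whose mean over the libraries reached 1 TPM) moved by -0.28 on the log2 scale, and the listed genes held 54.3% to 54.8% of all TPM in the controls and 58.6% to 60.0% after doxorubicin. After quantile normalization of the 6 libraries the median of all genes moved by -0.01, and after scaling by median ratios by -0.08. Of 10 fibroblast markers 5 were listed, with a summed level of 10287 to 10609 TPM in the controls and 9409 to 11485 TPM after doxorubicin (COL1A1, COL1A2, COL3A1 and PDGFRB fell and FN1 rose). None of 4 endothelial markers is among the genes listed, and of 5 immune markers CD68 rose from 47.2 ± 2.06 to 91.3 ± 3.41 TPM while PTPRC lay at 0.62 TPM or below in every library. The 3 listed of 5 epithelial markers summed to 135 to 150.5 TPM in the controls and 283 to 307 TPM after doxorubicin, with KRT19 and KRT18 higher. In bulk RNA, fewer cells of a kind and less RNA per cell cannot be told apart, and the part of these markers in the results was not tested.

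On the TPM scale, signaling genes fell more often than they rose. Of the 111 members 87 passed the filter on low values and 24 did not. Among the 87, 51 fell, 7 rose and 29 did neither. Those that rose or fell made up 58 of 87, where 71.2% of all genes tested rose or fell, and those that fell were 58.6%, where 48.5% of all genes fell. Only 8.05% of the members rose, where 22.7% of all genes did. The groups did not overlap for 61 of the 87 members, and for 80.7% of all genes tested. The median fold change of the members was -0.48 on the log2 scale (quartiles -0.64 and 0.12, range -1.21 to 1.81), which lay 0.19 below that of all genes.

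The split of directions depended on the scale. After quantile normalization 34 members were lower and 22 higher, against 28.7% lower and 33.0% higher for all genes, so that 60.7% of the members' calls were lower rather than 87.9% (46.5% rather than 68.1% for all genes). The members' median was then -0.17, which lay 0.16 below that of all genes. All 34 members that were lower after quantile normalization were also lower on the TPM scale, and the 7 that rose were higher on both. A further 17 that fell on the TPM scale were not called after it, 15 were higher only after it, and none was called in opposite directions.

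**Figure D1:**
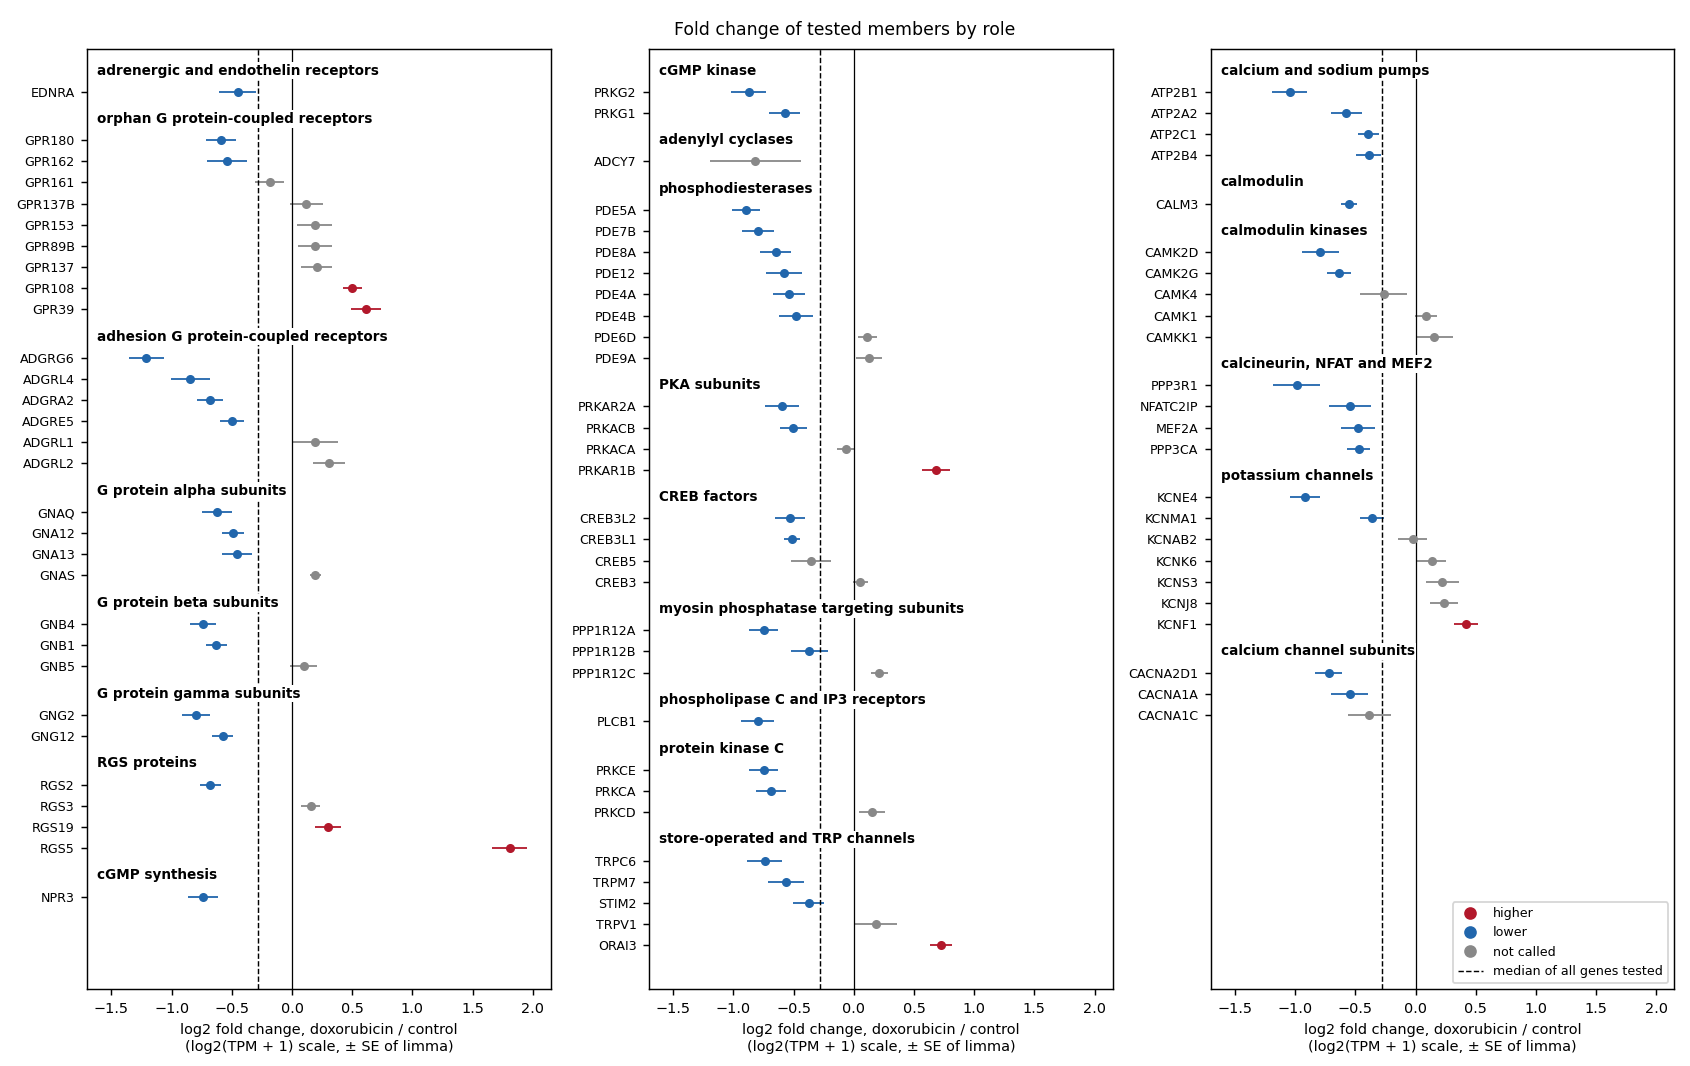
Log2 fold change of doxorubicin over control on the log2(TPM + 1) scale (x axis) for the members tested (apart from those not reported here), grouped by role, with the standard error of limma as the bar. Blue marks the 51 that fell, red the 7 that rose and grey those not called; the dashed line is the median of all 5721 genes tested, -0.28. RGS5 lies farthest to the right at 1.81 and ADGRG6 farthest to the left at -1.21.

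**Figure D2:**
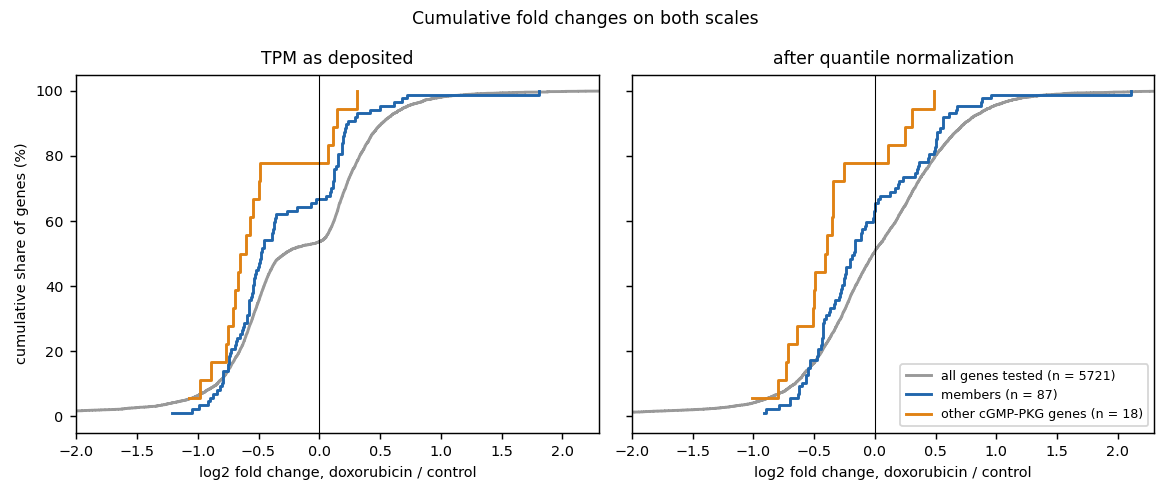
Cumulative share of genes (y axis) at or below each log2 fold change (x axis), on the TPM scale and after quantile normalization. Blue marks the members, grey all genes tested and orange the 18 other genes of the cGMP-PKG pathway that were tested, described further below. The members' curve lies to the left of that of all genes over its middle on both scales, with medians of -0.48 against -0.28 and of -0.17 against -0.01.

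In the cGMP route itself NPR3, PRKG1, PRKG2 and PDE5A fell on the TPM scale, of which PRKG1 was not called after quantile normalization, and PDE9A did not fall. Both listed genes of cGMP synthesis and natriuretic peptide binding were lower in every doxorubicin library than in every control library. For 80.7% of all genes tested the groups did not overlap, in either direction. NPR3, the natriuretic peptide clearance receptor (ENSG00000113389, chr5:32689070-32791724, plus strand, GRCh38), stood at 8.65, 8.86 and 7.27 TPM in the controls and 4.45, 4.25 and 4.92 TPM after doxorubicin. It fell from 8.26 ± 0.864 to 4.54 ± 0.344 TPM (SD, n = 3), by 0.74 on the log2 scale (SE 0.12, limma adjusted p = 0.000492). GUCY1B1, the beta subunit of soluble guanylyl cyclase, did not pass the filter, at 0.63, 0.54 and 0.41 TPM in the controls and 0.24, 0.03 and 0.18 TPM after doxorubicin, and its groups did not overlap.

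PRKG1, which encodes PKG-I (ENSG00000185532, chr10:50990891-52298350, plus strand), had 5.47, 6.28 and 4.87 TPM in the controls and 3.29, 3.18 and 3.67 TPM after doxorubicin. It fell from 5.54 ± 0.708 to 3.38 ± 0.257 TPM (SD, n = 3), by 0.57 on the log2 scale (SE 0.13, limma adjusted p = 0.0025). After quantile normalization its change was -0.19 and was no longer called (limma adjusted p = 0.11). PRKG2, which encodes the membrane-bound PKG-II (ENSG00000138669, chr4:81087370-81215117, minus strand), was less abundant, at 2.74, 3.59 and 2.28 TPM in the controls and 1.14, 1.14 and 1.00 TPM after doxorubicin. It fell by 0.87 (SE 0.15, limma adjusted p = 0.000552), and its log2 fold change after quantile normalization was -0.55, where the call held. In both kinases the lowest control library lay above the highest doxorubicin library, where the groups of 80.7% of all genes tested did not overlap.

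PDE5A, the phosphodiesterase that hydrolyses cGMP and is the target of sildenafil (ENSG00000138735, chr4:119494395-119628991, minus strand), was the most abundant of the members that act on cGMP alone. Its level was 86.95, 85.3 and 83.8 TPM in the controls and 43.9, 38.2 and 55.5 TPM after doxorubicin. It fell from 85.4 ± 1.58 to 45.9 ± 8.82 TPM (SD, n = 3), by 0.90 (SE 0.11, limma adjusted p = 0.000118), and its log2 fold change after quantile normalization was the same to 2 decimals, -0.90. PDE9A, the other cGMP-specific phosphodiesterase tested, had 5.59, 6.10 and 5.97 TPM in the controls and 6.40, 6.53 and 6.59 TPM after doxorubicin. Its doxorubicin libraries all lay above its controls, but the fold change was 0.13 (limma adjusted p = 0.298) and PDE9A was not called on the TPM scale, while after quantile normalization it was higher (0.49). Within each library the ratio of PDE5A to PDE9A, which a scaling by 1 factor per library leaves as it is, went from 14.5 ± 0.890 in the controls to 7.05 ± 1.30 after doxorubicin (SD, n = 3), whereas that of PDE5A to PRKG1 went from 15.6 ± 1.83 to 13.5 ± 1.56 and overlapped between groups. These ratios, and the others below, were chosen after the values were seen and carry no test.

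Downstream, PPP1R12A, the targeting subunit of myosin phosphatase known as MYPT1 (ENSG00000058272, chr12:79773563-79935460, minus strand), fell from 19.3 ± 2.53 to 11.1 ± 1.13 TPM (SD, n = 3), by 0.75 (SE 0.12, limma adjusted p = 0.000431). Its level was 18.4, 22.1 and 17.3 TPM in the controls and 10.6, 10.2 and 12.3 TPM after doxorubicin, with no overlap. PPP1R12B, the form best known from heart and skeletal muscle, fell by 0.37 (limma adjusted p = 0.0482), though its groups overlapped and the call was lost after quantile normalization. PPP1R12C, the other, broadly expressed member of the family, had 83.1, 76.8 and 80.2 TPM in the controls and 90.4, 89.8 and 98.7 TPM after doxorubicin, and its change of 0.21 (limma adjusted p = 0.0147) stayed under the fold limit. The ratio of PPP1R12A to PPP1R12C went from 0.242 ± 0.0403 to 0.119 ± 0.00567 (SD, n = 3) within libraries.

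**Figure D3:**
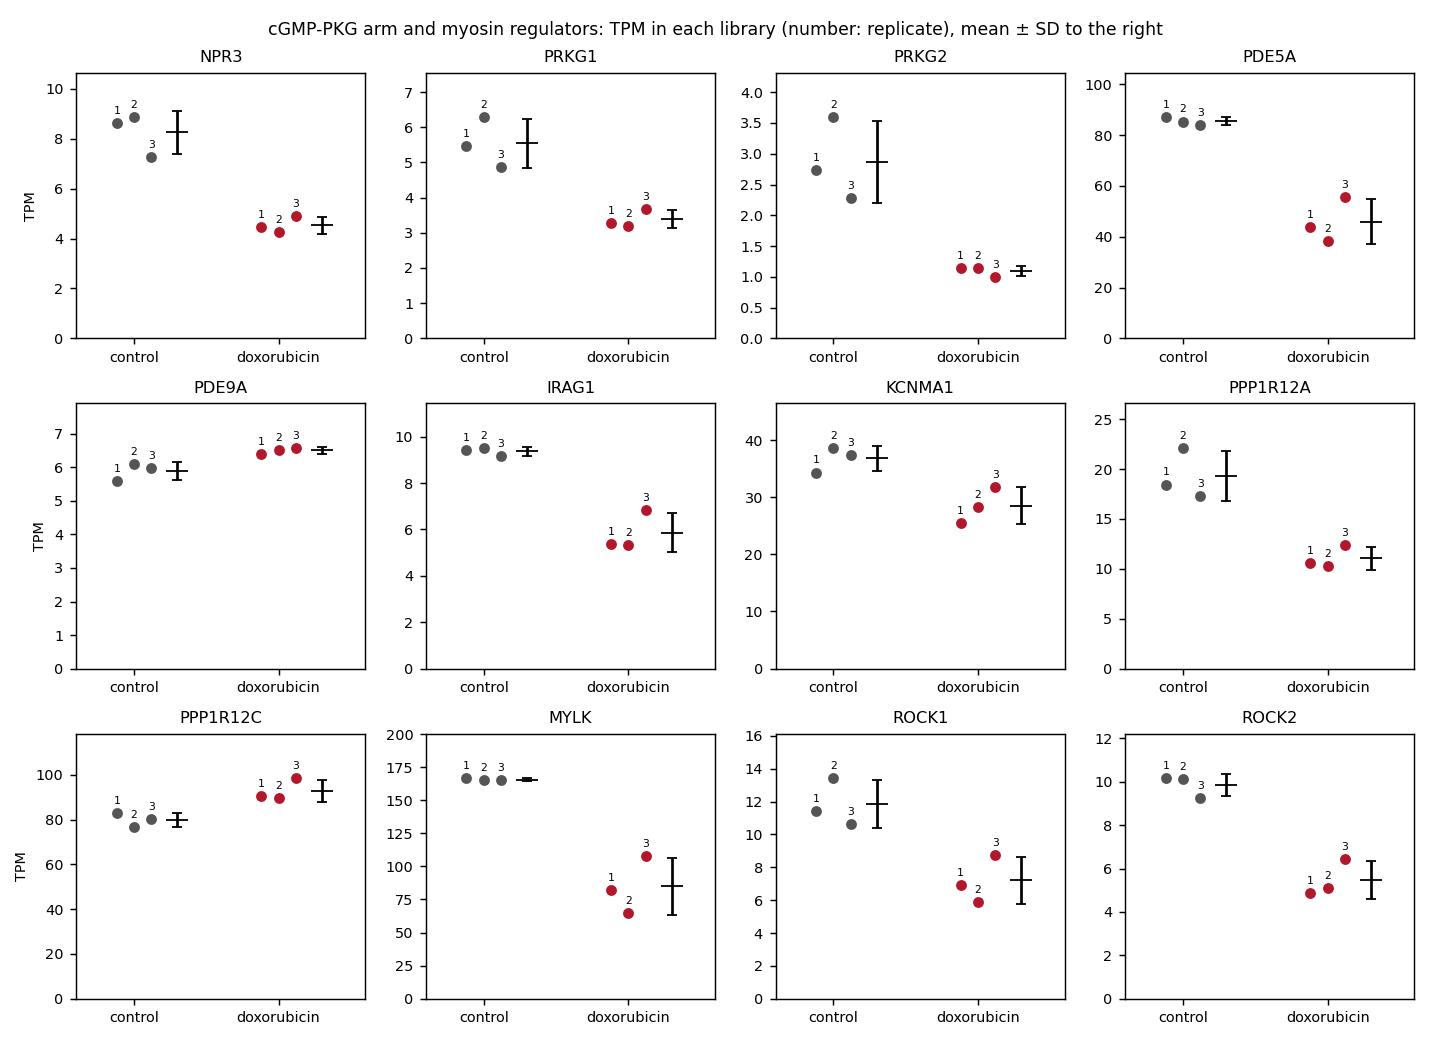
TPM (y axis, starting at 0) of 12 genes of the cGMP-PKG route in the 3 control and 3 doxorubicin libraries, with a point for each library and, to its right, the mean ± SD of the group. NPR3, PRKG1, PRKG2, PDE5A, PPP1R12A, MYLK and both ROCK genes fell without overlap, and PDE9A and PPP1R12C lie slightly higher after doxorubicin. For 80.7% of all genes tested the groups did not overlap.

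Other genes of the cGMP-PKG pathway, taken from a list of 58 genes outside the family prefixes, were counted beside them. Of these 58, 20 were listed and 18 passed the filter on low values. Among the 18, 14 fell (among them ROCK1, ROCK2, IRS1, GTF2I, ATF4, MYLK, BDKRB2, SLC8A1, IRAG1, PPP1CC, SRF and ATF2), BAD alone rose, and MAP2K2, IRS2 and SLC25A4 did not pass, where 48.5% of all genes tested fell and 22.7% rose. AGTR1, a receptor for angiotensin, and NPPC, the precursor of C-type natriuretic peptide, were below the filter. Their median fold change was -0.63 on the TPM scale and -0.40 after quantile normalization, where 13 were lower and 2 higher, against 28.7% and 33.0% of all genes.

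MYLK, the kinase that phosphorylates myosin light chain and so opposes myosin phosphatase, had 167, 165 and 165 TPM in the controls and 82.4, 65.02 and 108 TPM after doxorubicin. It fell from 166 ± 1.11 to 84.99 ± 21.4 TPM (SD, n = 3), by 0.98 (SE 0.15, limma adjusted p = 0.000511). ROCK1 and ROCK2, the RhoA-activated kinases that inhibit myosin phosphatase, fell by 0.66 and 0.75 on the log2 scale (limma adjusted p = 0.0028 and 0.000543). The kinases that oppose myosin phosphatase and its subunit PPP1R12A were lower in the same libraries. The smooth muscle markers ACTA2 and CNN1, contractile genes that fibroblasts also express, fell beside them, the 3 listed of 5 such markers summing to 508 to 551 TPM in the controls and 229 to 268 TPM after doxorubicin, with MYH11, a defining marker of smooth muscle, at 0.45 TPM or below in every library. Their part in the result was not tested.

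IRAG1, the PKG-I substrate that holds back IP3 receptor calcium release, fell from 9.37 ± 0.199 to 5.85 ± 0.84 TPM (SD, n = 3), by 0.61 (limma adjusted p = 0.00151), and was not called after quantile normalization (-0.25). SLC8A1, the sodium-calcium exchanger, had 3.37, 4.16 and 3.18 TPM in the controls and 1.01, 0.75 and 1.90 TPM after doxorubicin, a fall of 1.07 (limma adjusted p = 0.000671). BDKRB2, the Gq-coupled bradykinin B2 receptor, fell from 27.4 ± 2.57 to 14.4 ± 2.24 TPM, by 0.89 (limma adjusted p = 0.000171). Of the transcription factors, ATF2, ATF4 and SRF fell by 0.77, 0.71 and 0.49. BAD, a pro-apoptotic BCL2 family member that PKG and other kinases phosphorylate, rose from 89.5 to 111 TPM, by 0.31 (limma adjusted p = 0.00404), and was not called after quantile normalization.

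Among the receptors, 4 of 6 adhesion receptors tested fell, and of 9 orphan receptors tested 2 fell and 2 rose. Among all genes tested 48.5% fell and 22.7% rose. Of 4 adrenergic and endothelin receptors, EDNRA, the endothelin A receptor, had 3.02, 2.93 and 4.01 TPM in the controls and 1.84, 1.89 and 2.76 TPM after doxorubicin. It fell by 0.45 (limma adjusted p = 0.022), a call that was lost on both other scales and without control replicate 3, doxorubicin replicate 1 or doxorubicin replicate 2. ADRA1D and EDNRB lay below the filter, with ADRA1D at 0.36, 0.45 and 0.6 TPM in the controls and 0.97, 1.15 and 0.78 TPM after doxorubicin.

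Of 8 adhesion G protein-coupled receptors 6 were tested, and the 4 that fell were also lower after quantile normalization (28.7% of all genes). ADGRG6, a receptor for collagen IV and laminin that signals through Gs (ENSG00000112414, chr6:142301854-142446266, plus strand), had the largest fall of the 87 members. Its level was 2.95, 3.29 and 2.40 TPM in the controls and 0.66, 0.49 and 0.88 TPM after doxorubicin, a fall from 2.88 ± 0.449 to 0.677 ± 0.196 TPM (SD, n = 3) and by 1.21 on the log2 scale (SE 0.15, limma adjusted p = 7.08e-05). ADGRL4, ADGRA2 and ADGRE5 fell by 0.84, 0.68 and 0.50. The latrophilins ADGRL1 and ADGRL2 had fold changes of 0.19 and 0.31 and did not pass (limma adjusted p = 0.36 and 0.0579), while ADGRL2 was higher after quantile normalization (0.67) and after median-ratio scaling (0.48). The ratio of ADGRG6 to ADGRL2 went from 0.907 ± 0.136 in the controls to 0.159 ± 0.0246 after doxorubicin (SD, n = 3).

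The 12 genes with GPR symbols include several that are not classical receptors. GPR39, the zinc-sensing receptor, had 6.05, 5.45 and 4.80 TPM in the controls and 8.24, 9.55 and 8.73 TPM after doxorubicin, a rise of 0.62 (SE 0.12, limma adjusted p = 0.00139). In the annotation 34.8% of its exonic bases overlap LYPD1 on the opposite strand, a gene that went from 27.8 to 29.3 TPM and was not called. GPR108, a membrane protein of the Golgi, rose from 35.3 ± 2.80 to 50.3 ± 1.66 TPM (SD, n = 3), by 0.50 (limma adjusted p = 0.00041), whereas GPR162 and GPR180 fell by 0.54 and 0.59, GPR162 without a call on either other scale. GPR137, GPR137B, GPR153, GPR161 and GPR89B were not called on the TPM scale, but all of them except GPR161 were higher on both other scales. After quantile normalization 6 of the 9 tested were thus higher and 1 lower, against 33.0% and 28.7% of all genes. By median-ratio scaling 2499 of all 5721 genes were higher. GPR89B has a near-identical copy, GPR89A, and its level is uncertain.

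Heterotrimeric G protein subunits fell in 7 of 9 cases on the TPM scale (48.5% of all genes) and were lower in 5 of 9 after quantile normalization (28.7% of all genes). The Gs alpha gene was the exception among the alpha subunits. GNAS, which encodes Gs alpha and was by far the most abundant of the members, had 684, 684 and 674 TPM in the controls and 773, 764 and 797 TPM after doxorubicin. Its doxorubicin libraries lay above all controls, but the change of 0.19 (limma adjusted p = 0.00411) was under the fold limit and became -0.00 after quantile normalization and 0.42, a rise past the limit, after median-ratio scaling. GNAQ, the Gq alpha subunit, had 8.60, 8.66 and 7.65 TPM in the controls and 5.06, 4.45 and 5.66 TPM after doxorubicin and fell by 0.62 (SE 0.12, limma adjusted p = 0.00134), a change of -0.26 and under the fold limit after quantile normalization. GNA12 and GNA13, which act on RhoA, fell by 0.49 and 0.46, and only GNA12 was still lower after quantile normalization. The ratio of GNAS to GNAQ within libraries went from 82.2 ± 5.15 to 155 ± 15.6 (SD, n = 3).

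GNB1, the most abundant beta subunit listed, had 210.2, 243 and 208 TPM in the controls and 142, 127 and 158 TPM after doxorubicin, a fall of 0.63 (limma adjusted p = 0.000211). GNB4 and the gamma subunits GNG12 and GNG2 fell by 0.74, 0.58 and 0.80, and these calls held after quantile normalization. GNB5, the beta subunit that pairs with RGS proteins of the R7 family, was not called on the TPM scale (0.10, limma adjusted p = 0.433) but was higher after quantile normalization (0.33) and median-ratio scaling (0.31). The groups of the 4 subunits that fell did not overlap, which held for 80.7% of all genes tested.

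RGS proteins, which speed the return of G alpha subunits to the inactive state, moved in both directions. RGS5, a regulator of Gq and Gi best known from pericytes (ENSG00000143248, chr1:163111121-163321791, minus strand), had 2.81, 2.16 and 2.65 TPM in the controls and 12.2, 9.31 and 12.9 TPM after doxorubicin. It rose from 2.54 ± 0.339 to 11.5 ± 1.91 TPM (SD, n = 3), by 1.81 (SE 0.15, limma adjusted p = 4.32e-06), the largest rise of the 87 members, and its log2 fold change lay between 1.72 and 1.94 when any 1 library was left out. RGS2, a Gq regulator that PKG-I activates, fell from 58.6 ± 5.43 to 36.2 ± 1.93 TPM (SD, n = 3), by 0.68 (limma adjusted p = 0.0001). The ratio of RGS5 to RGS2 went from 0.0433 ± 0.00283 to 0.317 ± 0.0503 (SD, n = 3). RGS19 had 12.4, 13.03 and 11.1 TPM in the controls and 14.4, 16.5 and 14.7 TPM after doxorubicin, a rise of 0.30 (limma adjusted p = 0.0267) that was lost without control replicate 1, control replicate 3 or doxorubicin replicate 2 (limma adjusted p = 0.0579, 0.103 and 0.0797). RGS3 was not called (0.16, limma adjusted p = 0.0894).

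In the cAMP branch, the cAMP-specific phosphodiesterases PDE4A, PDE4B, PDE7B and PDE8A and the factors CREB3L1 and CREB3L2 fell on the TPM scale, and the PKA subunits were split. Of all 12 genes with PDE symbols 8 were tested and 6 fell, PDE5A and PDE12 among them, and none rose, where 48.5% of all genes fell and 22.7% rose, and after quantile normalization 3 of the 8 were lower and 1 higher. PDE7B, a cAMP-specific enzyme, had 3.24, 3.31 and 2.50 TPM in the controls and 1.43, 1.14 and 1.36 TPM after doxorubicin and fell by 0.79 (SE 0.13, limma adjusted p = 0.000578). The cAMP-specific PDE8A, PDE4A and PDE4B fell by 0.65, 0.54 and 0.48, of which only PDE8A was lower after quantile normalization too. PDE4D, below the filter, stood at 0.78, 1.08 and 1.02 TPM in the controls and 0.37, 0.31 and 0.32 TPM after doxorubicin. PDE12, a mitochondrial enzyme that trims RNA, fell by 0.58 and was not called after quantile normalization, and PDE6D, a chaperone of prenylated proteins, was not called (0.11), and both matched by name only.

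Of the PKA subunits, PRKAR1B, a type I regulatory subunit, had 16.9, 13.4 and 12.6 TPM in the controls and 24.3, 22.7 and 23.3 TPM after doxorubicin. It rose by 0.68 (SE 0.11, limma adjusted p = 0.000544), and by 0.88 after quantile normalization. PRKAR2A, a type II regulatory subunit, and PRKACB, a catalytic subunit, fell by 0.59 and 0.50, and neither was called after quantile normalization. PRKACA, the other catalytic subunit, was not called (-0.07, limma adjusted p = 0.407; 0.16 after median-ratio scaling). The ratio of PRKAR1B to PRKAR2A went from 1.57 ± 0.355 to 4.12 ± 0.690 within libraries (SD, n = 3). CREB3L1 and CREB3L2, membrane-bound factors of the CREB family that act on matrix secretion, fell by 0.52 and 0.53, while CREB3 and CREB5 were not called (0.05 and -0.35).

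Since CREB binds the cAMP response element, the letters TGACGTCA, which read the same on both strands, were looked for in the RefSeq promoters (GRCh38.p14, 250 bases before to 50 after each start). RefSeq promoters were matched for 88 of the 111 members, and the element was in 5 of them, CREB3L2, KCNF1, PDE4A, PDE7B and PPP1R12C (5.68%), against 4.25% of the 4395 tested genes with a promoter and 2.25% of all 27305 genes in the table of promoters. Of these 5, 3 fell, 1 rose and PPP1R12C was not called, where 48.5% of all genes tested fell and 22.7% rose. The cell cycle homology region TTTGAA, searched on both strands, was in 18 of the 88 (20.5%), against 14.7% of the tested genes and 18.2% of all genes. A gene was counted where any of its promoters held the letters. The 88 members had 185 promoters, and the 27305 genes had 35116. The 88 also include members below the filter on low values, so these shares are not on an equal footing. Stretches around the element of 4 members are printed because they hold the same letters beside unlike fold changes, 5′ to 3′ on the strand of the gene, with the element in capitals. A match is a description of these letters and not of binding. The stretch of KCNF1 is at chr2:10911875-10911933 (plus strand, element beginning at -19 from the start), that of PDE7B at chr6:135851506-135851593 (plus strand, -155), that of CREB3L2 at chr7:138002218-138002305 (minus strand, -179) and that of PPP1R12C at chr19:55117649-55117736 (minus strand, -59).
KCNF1: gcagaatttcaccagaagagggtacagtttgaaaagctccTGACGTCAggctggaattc
PDE7B: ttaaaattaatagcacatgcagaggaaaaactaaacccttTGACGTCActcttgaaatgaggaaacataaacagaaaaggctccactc
CREB3L2: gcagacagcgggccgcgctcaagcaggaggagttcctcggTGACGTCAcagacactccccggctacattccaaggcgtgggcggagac
PPP1R12C: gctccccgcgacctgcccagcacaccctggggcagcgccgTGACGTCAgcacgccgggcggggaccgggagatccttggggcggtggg

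The log2 fold changes beside these stretches were 0.42 for KCNF1, -0.79 for PDE7B, -0.53 for CREB3L2 and 0.21 for PPP1R12C. KCNF1, an electrically silent potassium channel subunit, had 10.99, 10.3 and 10.3 TPM in the controls and 14.5, 13.9 and 14.8 TPM after doxorubicin, with no overlap (limma adjusted p = 0.00362).

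On the Gq and calcium release side, PLCB1, the phospholipase C that Gq activates, had 5.59, 5.23 and 4.55 TPM in the controls and 2.91, 2.03 and 2.65 TPM after doxorubicin. It fell by 0.80 (SE 0.14, limma adjusted p = 0.000642). The IP3 receptors ITPR1 and ITPR2 were below the filter, ITPR1 with overlapping groups of 0.95, 0.6 and 0.91 TPM and 0.34, 0.6 and 0.55 TPM. Of the protein kinase C genes, the calcium-dependent PRKCA and the calcium-independent PRKCE fell by 0.69 and 0.75 (limma adjusted p = 0.000762 and 0.000446), and both were lower after quantile normalization. PRKCD, another calcium-independent isoform, was not called (0.15, limma adjusted p = 0.201) but was higher after quantile normalization (0.35). The ratio of PRKCA to PRKCD went from 0.966 ± 0.0692 to 0.515 ± 0.0259 (SD, n = 3).

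Calcium entry genes were divided. ORAI3, a pore subunit of store-operated channels (ENSG00000175938, chr16:30949066-30956461, plus strand), had 16.7, 16.7 and 17.8 TPM in the controls and 26.8, 28.9 and 30.8 TPM after doxorubicin. It rose from 17.1 ± 0.613 to 28.8 ± 1.96 TPM (SD, n = 3), by 0.72 (SE 0.09, limma adjusted p = 8.52e-05), although 52.9% of its exonic bases overlap AC135048.1 on the same strand and reads of the pair may not be separable. STIM2, a sensor of calcium in the endoplasmic reticulum that opens these channels, fell by 0.37 (limma adjusted p = 0.0227), but its change was 0.00 after quantile normalization. The ratio of ORAI3 to STIM2 went from 2.39 ± 0.378 to 5.42 ± 0.428 (SD, n = 3) with no overlap. TRPC6, a channel opened by diacylglycerol and inhibited by PKG-I, had 2.41, 2.69 and 2.35 TPM in the controls and 0.83, 1.49 and 0.98 TPM after doxorubicin and fell by 0.74 (limma adjusted p = 0.00134). TRPM7, a channel fused to a kinase, fell by 0.56 and was not called after quantile normalization, and TRPV1 was not called (0.18) but was higher after it (0.49).

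All 4 calcium pumps tested, which clear calcium from the cytosol, fell on the TPM scale (48.5% of all genes). They were also lower after quantile normalization (28.7% of all genes). ATP2B1, the plasma membrane pump PMCA1 (ENSG00000070961, chr12:89588049-89709300, minus strand), had 19.2, 18.4 and 16.1 TPM in the controls and 9.94, 6.51 and 8.32 TPM after doxorubicin. It fell from 17.9 ± 1.62 to 8.26 ± 1.72 TPM (SD, n = 3), by 1.04 (SE 0.14, limma adjusted p = 0.000164). ATP2A2, the pump SERCA2 of the endoplasmic reticulum, had 75.8, 80.1 and 71.2 TPM in the controls and 53.1, 40.1 and 60.3 TPM after doxorubicin and fell by 0.57 (limma adjusted p = 0.00324). ATP2B4 and the Golgi pump ATP2C1 fell by 0.39 and 0.39, changes of -0.16 and -0.17 that were under the fold limit after median-ratio scaling.

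Calmodulin and 2 of 5 calmodulin kinases tested fell, where 48.5% of all genes did. CALM3, one of the genes for calmodulin, had 349, 361 and 340.3 TPM in the controls and 240.2, 219 and 256 TPM after doxorubicin, and fell from 350.3 ± 10.5 to 238 ± 18.8 TPM (SD, n = 3), by 0.56 (SE 0.07, limma adjusted p = 5.9e-05). CAMK2D, the delta chain of calmodulin kinase II, had 43.1, 53.8 and 44.6 TPM in the controls and 26.7, 21.1 and 33.8 TPM after doxorubicin and fell by 0.79 (limma adjusted p = 0.00148), and CAMK2G, the gamma chain, fell by 0.63. CAMK1, CAMK4 and CAMKK1 were not called (0.08, -0.26 and 0.15), although CAMKK1 was higher after quantile normalization (0.50), and 80.1% of the exonic bases of CAMK1 overlap OGG1 on the opposite strand.

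Calcineurin, the phosphatase that calmodulin activates, fell by 0.99 in its regulatory subunit PPP3R1 and by 0.47 in its catalytic subunit PPP3CA. PPP3R1 had 5.87, 9.61 and 6.01 TPM in the controls and 2.70, 2.51 and 4.05 TPM after doxorubicin, with no overlap (limma adjusted p = 0.00154). MEF2A, a transcription factor that calcineurin activates, and NFATC2IP, a protein that binds NFAT, fell by 0.48 and 0.54. Among all genes tested 48.5% fell. The groups of NFATC2IP overlapped, with 9.60 TPM in control replicate 3 and 9.82 TPM in doxorubicin replicate 3. PPP3CA changed by -0.257 after median-ratio scaling, which was under the fold limit. Only PPP3R1 of these 4 was still lower after quantile normalization (28.7% of all genes).

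Of 11 genes matching KCN symbols 7 were tested, 2 fell and 1, KCNF1, rose, where 48.5% of all genes fell and 22.7% rose. After quantile normalization 5 were higher and 2 lower, against 33.0% and 28.7% of all genes. KCNMA1, the large-conductance calcium-activated channel that PKG-I opens, had 34.3, 38.7 and 37.4 TPM in the controls and 25.4, 28.2 and 31.9 TPM after doxorubicin. It fell by 0.36 (SE 0.10, limma adjusted p = 0.00692), and by median-ratio scaling its change was -0.14 and not called. KCNE4, an accessory subunit that inhibits several potassium channels, had 3.18, 2.67 and 2.62 TPM in the controls and 1.04, 1.06 and 0.96 TPM after doxorubicin and fell by 0.92 (limma adjusted p = 0.00015). Of 3 calcium channel subunits tested 2 fell, where 48.5% of all genes did. The alpha-2-delta subunit CACNA2D1 fell by 0.72 and the P/Q-type pore CACNA1A by 0.55, the latter not called after quantile normalization. CACNA1C, the L-type pore, was not called (-0.38, limma adjusted p = 0.0711).

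A few members rested on single libraries. ADCY7, the only adenylyl cyclase tested, had 7.46, 6.71 and 5.76 TPM in the controls and 2.33, 1.87 and 7.43 TPM after doxorubicin, so that doxorubicin replicate 3 lay within the controls and the change of -0.82 did not pass (limma adjusted p = 0.0782). Without doxorubicin replicate 3 the change was -1.30 (limma adjusted p = 6.46e-05). In the annotation 41.6% of its exonic bases overlap BRD7 on the opposite strand. PDE3B, a phosphodiesterase that cGMP inhibits, was below the filter at 2.11, 0.24 and 0.22 TPM in the controls and 0.04, 0.12 and 0.17 TPM after doxorubicin, with control replicate 1 far above the other 5 libraries. ITPR2 had 2.14, 0.88 and 0.62 TPM in the controls and 0.48, 0.39 and 0.52 TPM after doxorubicin, again highest in control replicate 1. GPR78 was listed at 0 in all 3 controls and at 1.46, 0.01 and 0.7 TPM after doxorubicin.

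Other members share exonic bases with a neighbour, and whether the counting used strand is not given in the sources used here, so reads of such pairs may not be separable. The share of exonic bases was 34.6% for PPP3R1, 30% for TRPV1, 27.6% for GNB4, 24.1% for GPR78 and 23.1% for ADGRA2. PPP3R1, TRPV1 and GPR78 have partners on their own strand, which counting by strand would not separate. The partner of ADGRA2, BRF2, went from 8.43 to 9.91 TPM and was not called, while ADGRA2 fell.

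**Figure D4:**
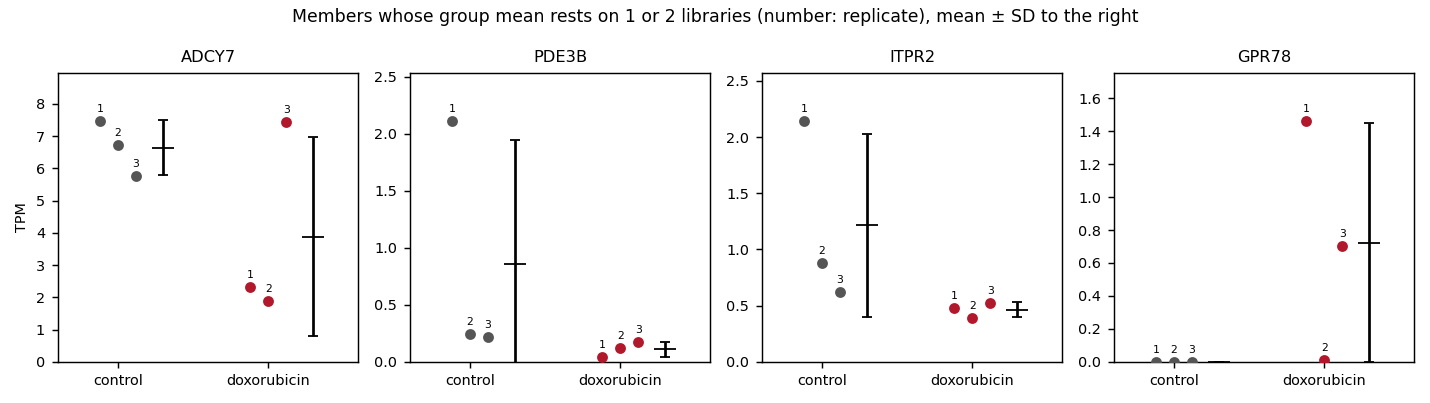
TPM (y axis, starting at 0) of ADCY7, PDE3B, ITPR2 and GPR78 in each library of both groups, with the mean ± SD per group to the right (error bars cut at 0). In ADCY7 doxorubicin replicate 3 lies at 7.43 TPM beside 2.33 and 1.87, and in PDE3B control replicate 1 lies at 2.11 TPM beside 0.24 and 0.22.

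The 24 members below the filter had means over the 6 libraries of 0.0183 to 0.838 TPM. The members nearest to the limit were CAMK4 at 1.02 TPM and TRPV1 at 1.07 TPM inside it and ITPR2 at 0.838 TPM and ADRA1D at 0.718 TPM outside it. Beside those given above they included ADCY8, ADGRF3, ADGRV1, CACNA1G, CAMK2B, GPR63, KCNC4, KCNQ1OT1, KCNS2, PDE3A, PDE6A and TRPM1, each below 1 TPM in every library. PDE3A and TRPM1 were listed at 0 in all 3 controls.

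The drop of the members was not even over the 3 doxorubicin libraries. Against the control mean, the median of the 87 members was -0.50 in doxorubicin replicate 1, -0.56 in replicate 2 and -0.24 in replicate 3 on the log2 scale. The median of all genes tested moved alike, by -0.27, -0.33 and -0.15. Without any 1 library the members' median over the groups lay between -0.55 and -0.41. Single libraries also decided some calls beside those of EDNRA and RGS19. PPP1R12B was not called without any one of control replicates 1, 2 and 3 or doxorubicin replicates 1 and 2 (limma adjusted p = 0.0538 to 0.176), and STIM2 without control replicate 1 or 2 or doxorubicin replicate 1 or 2 (limma adjusted p = 0.0578 to 0.0985). NFATC2IP lost its call without control replicate 2 or doxorubicin replicate 1 or 2 (limma adjusted p = 0.0535 to 0.0632), and GPR162 without doxorubicin replicate 1 (limma adjusted p = 0.0539). CACNA1C was lower without control replicate 3 (-0.51) or doxorubicin replicate 3 (-0.55), CREB5 without control replicate 2 (-0.50) or doxorubicin replicate 3 (-0.45) and CAMK4 without control replicate 2 (-0.50), while ADGRL2 (0.42) and GPR89B (0.32) were higher without doxorubicin replicate 2.

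The members had long gene spans beside all genes tested. The gene span in GENCODE 29 had a median of 105833 bases over the 87 members and 32497 bases over the 5700 tested genes with a position. The median span was 132002 bases for the members that fell and 7690 bases for those that rose, against 63837 and 11534 bases for all genes. Spearman's rho between span and log2 fold change was -0.30 over the 87 members and -0.44 over all 5700 genes (-0.24 and -0.39 after quantile normalization), and that of the GC content of the transcript was 0.52 and 0.45. These are correlations across genes, which share the same 6 libraries and are not independent replicates. With all genes split by span into 3 equal groups, the group of the longest (62477 bases and over) held 54 members, whose median was -0.54, beside -0.52 for all its genes, and 38 of the 54 fell, beside 74.2% of all. The 19 members of the middle group had a median of -0.19, beside -0.37, with 9 that fell and none that rose, beside 51.1% and 19.7% of all its genes. The 14 members of the shortest group had a median of 0.13, beside 0.23, with 4 that rose and 4 that fell, beside 41.6% and 20.5%. The part of gene length in the results was not tested.

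**Figure D5:**
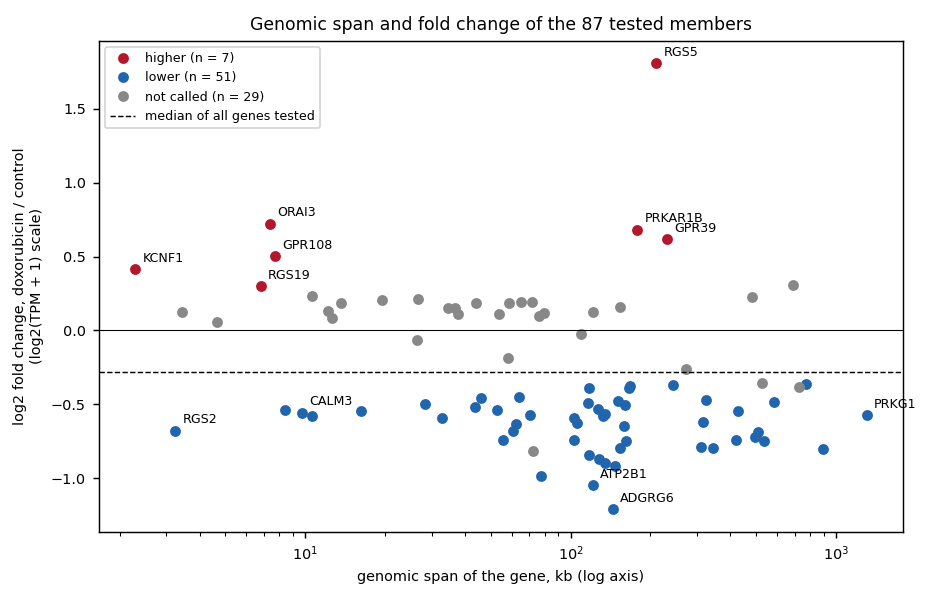
Log2 fold change on the log2(TPM + 1) scale (y axis) against the genomic span of the gene in kb (x axis, log scale) for the 87 members, red for the 7 that rose, blue for the 51 that fell and grey for the 29 not called; the dashed line is the median of all genes tested, -0.28. Most of the long genes lie below 0, and RGS5, PRKAR1B and GPR39 are the long genes that rose.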

How the data were processed

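RNA of WI-38 cells was sequenced in 9 libraries, of which the 6 of the control and doxorubicin groups had columns in the deposited table. The deposited values per gene and library, whose unit the header does not name, were taken to be TPM made by the authors from reads assigned to genes, scaled for gene length and library total, since RSEM is among the tools named. FPKM would differ by 1 factor per library, which median-ratio scaling covers. The submitters' processing notes name CASAVA, HISAT2, StringTie, RSEM, DESeq2, edgeR and the mouse build GRCm38, whereas all gene identifiers are human Ensembl ones. How each tool was used is not given in the sources used here. The authors' fold changes, p-values and calls of direction stand in further columns and were not used. Depth cannot be had from TPM, and no interval or floor from counts is given.

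Genes whose mean was under 1 TPM were left out (5721 of 6499 remained), log2(TPM + 1) was taken, and limma 3.58.1 in R 4.3.3 (trend and robust eBayes) was fitted with a mean per group and Benjamini-Hochberg adjustment over all 5721. With 3 libraries against 3 an exact permutation test of a single gene cannot go below 0.1, so none is quoted. On simulated data made from these 5721 genes the fit recovered 63 of 100 genes changed 1.5-fold and 93 of 100 changed 2-fold, with 8 unchanged genes called. Only these genes were changed, all with a control mean of log2(TPM + 1) over 2, whereas 71.2% of the real genes were called. The simulation therefore does not give the sensitivity of the fit on the real data, nor that for genes at low levels. Positions and gene spans came from GENCODE 29 on GRCh38 by Ensembl ID (6462 of 6499 matched), and promoters from RefSeq on GRCh38.p14. The members and gene lists were chosen with earlier results of these data known. The rule for named genes took up to 12 of the largest rises and 12 of the largest falls among called members whose groups did not overlap (7 rose), in each role the called member with the largest change and the most abundant member, all members of cGMP synthesis, cGMP kinase and calmodulin, and the 3 largest called changes among the other pathway genes. Other genes named are paralogues or were chosen after their values were seen. Alternatives were the pseudocount, the filter on low values, quantile and median-ratio scaling, the fold and p limits, the replicate number as a block and leaving out each library. Some members and pathway genes that entered the counts are not reported here by name.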

Additional observations from a re-analysis of the deposited data

How the results depend on the processing

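Several results moved with the scale, the filter on low values or the fold limit. With quantile normalization 22 members were higher (33.0% of all genes were), the members' median was -0.17 and 2 other genes of the pathway were higher. CREB3 and GNAS turned to -0.0169 and -0.00272 on the log2 scale. With median-ratio scaling 27 of the 87 members were higher and 41 lower, where 2499 and 2145 of all 5721 genes were. The filter on low values was applied after this scaling, so CAMK4 was not tested and counts as not called. On that scale 4 other pathway genes were higher, the members' median was -0.28, and PRKACA turned to 0.16. Without a filter on low values 11 members and 2 other pathway genes were higher. With a fold limit of 1.5, 30 members were called, 4 higher and 26 lower, and 0 other pathway genes were higher. That 0, from limma, stands against 1 at the fold limit of 1.2. The cause of these differences was not tested, except that a stricter limit calls fewer genes by construction. Counts over all genes are given for the TPM, quantile and median-ratio scales only, and not for the other settings.

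Leaving out each library in turn gave 53 to 61 members called, 6 to 8 higher and 46 to 54 lower, a median of -0.55 to -0.41, 14 other pathway genes lower and 0 to 1 higher, the 0 (BAD lost) without control replicate 2. The log2 fold change of CAMK1, not called, lay between -0.00514 (without control replicate 3) and 0.172. The deviations of same-numbered libraries correlated at -0.0627, -0.193 and -0.23, so the values gave no sign of pairing by replicate number. Whether the samples were cultured or processed in matched sets cannot be told from these correlations. With the replicate number as a block 55 members were called, 6 higher and 49 lower, and RGS19, STIM2 and PPP1R12B lost their calls (limma adjusted p = 0.062, 0.055 and 0.0682). Depth is unknown, so whether low members are limited by counting could not be measured.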

Other observations

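Antisense RNAs of the same gene families, which the hyphen in their symbols kept out of the members, were mostly at low levels. ATP2A1-AS1 had 0.74, 1.06 and 0.83 TPM in the controls and 3.1, 2.84 and 0.94 TPM after doxorubicin, a log2 fold change of 0.74 (limma adjusted p = 0.0236) in which doxorubicin replicate 3 lay within the controls. PRKCQ-AS1 had 0.37, 0.37 and 0.57 TPM in the controls and 1.95, 1.5 and 0.54 TPM after doxorubicin, again with doxorubicin replicate 3 beside the controls, and was below the filter on low values. PRKCZ-AS1 lay between 0.29 and 0.68 TPM in the controls and between 0.83 and 1.04 TPM after doxorubicin, without overlap, and was below the filter. These 3 genes were named after their values were seen.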
